A study of Mus musculus with 12 samples.

Results

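Voltage-gated sodium channels of sensory neurons are built from a pore-forming alpha subunit and auxiliary beta subunits, and the genes described here are 3 of those that encode beta subunits, Scn2b, Scn3b and Scn4b. They were taken by gene symbol from the 24490 genes of the expression table, and all 3 were found and passed the filter on low expression in every comparison. Expression was measured by RNA-sequencing of polyA-selected RNA from dorsal root ganglia (DRG) of adult C57Bl/6 mice, which hold the cell bodies of sensory neurons among satellite glia, Schwann cells, fibroblasts and vessels. The 12 samples fell into 3 groups of 4: intact ganglia frozen straight after dissection, with 1 mouse per sample; acutely dissociated, unsorted ganglia, with 2 mice per sample; and dissociated cells passed through magnetic cell sorting (MACS), with 8 mice per sample, in which antibody-labelled non-neuronal cells stayed on the column. They are called Intact, Dissociated and MACS here. The labels name no transgene, injury or drug in any group. By the study's cell counts the sort kept mainly small neurons, so a MACS sample stands for nociceptor-rich neurons and not for all DRG neurons.

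A beta subunit has a single membrane-spanning segment, a short intracellular tail and an extracellular immunoglobulin-like fold. It changes how many channels reach the membrane and how they open and inactivate, and it also acts as a cell adhesion protein. The beta2 and beta4 subunits, from Scn2b and Scn4b, bind the alpha subunit through a disulfide bond, whereas beta3, from Scn3b, binds it without one. The beta4 tail can block open channels and is known for its part in the resurgent current of fast-firing neurons.

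All 3 genes lie on chromosome 9 of mm10. Scn3b lies from 40269216 to 40291618. Scn2b lies from 45117876 to 45130070, and Scn4b follows it on the same strand from 45139042 to 45154061, with 8971 bases between them. Scn3b is 4826 kb away from this pair. The 250 bases upstream of the RefSeq start (GRCm38.p6) of the neighbours Scn2b and Scn4b are printed because these genes, side by side on the chromosome, moved in opposite directions in each comparison in which both were called. They lie at chr9:45117626-45117875 and chr9:45138374-45138623, both on the plus strand, and capitals mark each CG dinucleotide. The RefSeq start of Scn4b is 418 bases upstream of the start in the expression table.
Scn2b: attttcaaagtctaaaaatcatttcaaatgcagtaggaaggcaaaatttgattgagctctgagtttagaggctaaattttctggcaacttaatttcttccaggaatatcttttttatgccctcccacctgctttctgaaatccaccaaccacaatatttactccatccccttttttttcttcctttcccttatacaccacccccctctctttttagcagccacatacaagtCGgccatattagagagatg
Scn4b: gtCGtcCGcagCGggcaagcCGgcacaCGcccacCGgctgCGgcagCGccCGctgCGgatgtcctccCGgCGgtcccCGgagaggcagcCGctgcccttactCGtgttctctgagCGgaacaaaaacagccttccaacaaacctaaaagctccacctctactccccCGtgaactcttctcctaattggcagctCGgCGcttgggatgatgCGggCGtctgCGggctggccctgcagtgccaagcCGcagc

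The stretch upstream of Scn2b held 1 CG dinucleotide and 38.4% G and C, and that of Scn4b held 23 and 66%. Over 32851 mouse promoter stretches of this length, the medians were 6 CG dinucleotides and 52.4% G and C. The share with at least as many CG dinucleotides was 92.1% for the count in Scn2b and 13.3% for that in Scn4b. Of 3 motifs searched on both strands, CCAAT was found upstream of Scn4b and in 33.8% of all stretches, while TATAAA (12.4% of all stretches) and GGGCGG (32.7%) were found upstream of neither gene. No promoter stretch was printed for Scn3b.

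Expression is given in the deposited unit FPKM, fragments divided by transcript length and by the mapped fragments of the sample, which sets genes of different length on 1 scale. The estimated depth was 13900000 to 19900000 fragments per sample, which gives 910 to 3650 fragments for Scn2b, 1580 to 3010 for Scn3b and 1580 to 10410 for Scn4b, or a counting error of at most 3.31%. The pan-neuronal markers summed to 3583 to 3835 FPKM in Intact, 4278 to 4602 in Dissociated and 3800 to 4884 in MACS samples. The satellite glia markers summed to 1781 to 2105, 2276 to 2857 and 90.1 to 205 FPKM, and the fibroblast markers to 496 to 942, 168 to 337 and 7.62 to 32.4 FPKM. Endothelial markers remained after sorting, at 11.4 to 68.1 FPKM against 20.2 to 23.7 in Intact and 38.2 to 50.5 in Dissociated samples. Some samples stood apart. Intact replicate 1 held 1795 FPKM of muscle genes, against 10.1 to 42.0 in the other Intact samples. It also stood apart in neuronal genes. Its small-diameter nociceptor markers summed to 3481 FPKM, against 2449 to 2658 in the other Intact samples, and its sodium channel alpha subunits to 295, against 447 to 479. Haemoglobin genes held 5.14% and 7.13% of all FPKM in MACS replicates 3 and 4, against 0.680% and 0.864% in replicates 1 and 2. Schwann cell markers summed to 1311 to 2576 FPKM in Intact and 1012 to 1624 in Dissociated samples. MACS replicate 4 held 1027 FPKM of them, above the lowest Dissociated sample, against 502 to 554 in the other MACS samples. MACS replicate 3 differed from the other MACS samples in Scn2b, as described with that gene.

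Groups were compared with limma on log2(FPKM + 0.1), two-sided, over all genes whose mean reached 1 FPKM, and p-values were adjusted over all of them by the Benjamini-Hochberg method. The log2-fold changes below are on this scale, and each is given with its standard error (SE). A gene was called when its adjusted p was under 0.05, the log2 ratio of its group means was beyond 0.5 in either direction and the higher group mean was above 5 FPKM. Between MACS and Dissociated samples 981 genes, 8.15% of the 12038 tested, were called higher and 1505, 12.5%, lower. In the comparison of Dissociated with Intact samples 531 genes, 4.29% of 12392, were called higher in the Dissociated samples and 342, 2.76%, lower. Between MACS and Intact samples the counts were 922 higher, 7.54% of 12234, and 1313 lower, 10.7%. The balance of directions depended on the scaling of the samples. Under quantile normalization the higher and lower calls were 1405 and 1270, 402 and 409, and 1237 and 1164 in these comparisons, and the median of all genes moved from -0.04 to 0.10 and from -0.04 to 0.12 in the comparisons of MACS with Dissociated and Intact samples. Removal of the haemoglobin genes gave 343 higher and 427 lower calls between Dissociated and Intact samples. The members kept their direction and their side of the call rule under quantile normalization, median-ratio scaling and removal of the haemoglobin genes.

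The question for each gene is how its level in whole ganglia compares with that after dissociation and after the removal of most non-neuronal cells. Of the 3 members, Scn2b and Scn3b were called higher in MACS than in Dissociated samples and Scn4b was called lower. Between Dissociated and Intact samples Scn4b was called higher, Scn2b lower and Scn3b neither. Between MACS and Intact samples Scn3b was called higher, Scn4b lower and Scn2b neither. With 3 genes these counts cannot be set against the background shares, so each gene is described by its own values. The comparisons share groups of samples and are not independent of each other.

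**Figure D1:**
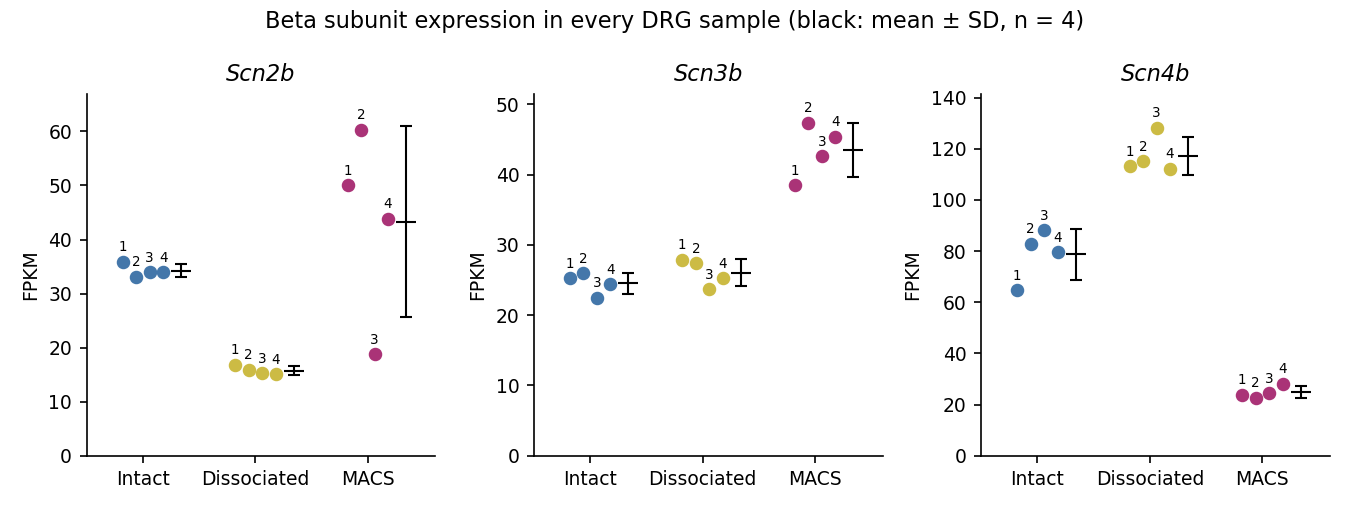
FPKM (y axis) of Scn2b, Scn3b and Scn4b in each Intact, Dissociated and MACS DRG sample; numbers beside the points are replicates, and black marks are the mean ± SD over 4 samples. Scn4b was between 22.7 and 28.1 FPKM in all MACS samples, below all others, Scn3b was highest in the MACS samples, and MACS replicate 3 lay at 18.8 FPKM of Scn2b, near the Dissociated samples.

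Scn4b encodes the beta4 subunit and had the largest change of the 3 genes in both comparisons with MACS samples. Its expression was 64.8, 82.8, 88.1 and 79.6 FPKM in Intact replicates 1 to 4, 113, 115, 128 and 112 FPKM in Dissociated replicates 1 to 4 and 23.8, 22.7, 24.5 and 28.1 FPKM in MACS replicates 1 to 4. The 3 groups did not overlap: every Dissociated sample lay above every Intact sample, and every MACS sample below both. The means were 78.8 ± 10.0 FPKM in Intact, 117 ± 7.49 in Dissociated and 24.8 ± 2.34 in MACS samples (SD, n = 4 each). The Dissociated mean was 4.73 times and the Intact mean 3.18 times the MACS mean.

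Between MACS and Dissociated samples, Scn4b fell by 2.24 on the log2 scale (SE 0.08, adjusted p = 1.8e-07 by limma). An exact permutation test over the same samples gave p = 0.0286, the smallest that 4 samples against 4 allow. Without any 1 of the 8 samples the log2-fold change stayed between -2.30 and -2.20. Between MACS and Intact samples Scn4b fell by 1.66 (SE 0.12, adjusted p = 1.1e-05).

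Between Dissociated and Intact samples, Scn4b rose by 0.58 on the log2 scale (SE 0.10, adjusted p = 0.0068 by limma). This call rested on Intact replicate 1, the sample with muscle genes, which had the lowest Scn4b of the Intact samples. Without it the Intact mean was 83.5 ± 4.29 FPKM (SD, n = 3) and the log2-fold change 0.49 (SE 0.06, adjusted p = 6.1e-04), under the fold change that a call needs, although the groups still did not overlap.

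The markers of large-diameter neurons, a list of mechanoreceptor and proprioceptor genes, summed to 693 to 851 FPKM in Intact, 972 to 1186 in Dissociated and 110 to 191 in MACS samples, and none of the 11 was at 0 in all samples of a group. The 851 FPKM was the sum of Intact replicate 1, against 693 to 767 in the other Intact samples. Of these 11 genes, 10 were called lower in MACS than in Dissociated samples, against 12.5% of all genes tested. The median log2-fold change of the 11 was -2.62 against -0.04 over all genes tested. The remaining gene, Runx3, stayed under 5 FPKM in both groups. Between Dissociated and Intact samples, where Scn4b was higher, 6 of the 11 were called higher and 0 lower by limma. At an unadjusted p under 0.05 the counts were 8 and 0. Over all genes tested 4.29% were called higher and 2.76% lower, and the medians were 0.61 for the markers and 0.01 over all genes. These marker counts were not repeated without Intact replicate 1, on which the call of Scn4b rested. Between MACS and Intact samples 9 of the 10 tested were called lower, against 10.7% of all genes tested. Not every marker had the order of group means seen in Scn4b. Etv1 was 14.5 ± 1.82 FPKM in Intact, 24.8 ± 3.00 in Dissociated and 17.1 ± 4.79 in MACS samples (SD, n = 4 each). Its MACS mean thus lay above its Intact mean. Although Etv1 was called lower in MACS than in Dissociated samples, these groups overlapped (exact permutation p = 0.086). Pvalb, the parvalbumin of proprioceptors, was 158 ± 188 FPKM in Intact and 82.4 ± 13.3 in Dissociated samples (SD, n = 4 each). Its Intact values reached from 61.8 to 441 FPKM, and the highest was that of Intact replicate 1, the sample with muscle genes. Whether muscle tissue contributed to this Pvalb value, and so to the marker sum of that sample, was not tested. By the medians, 65.5 FPKM in Intact and 81.1 in Dissociated samples, the Dissociated samples were higher. Pvalb was not called between these groups (adjusted p = 0.69 by limma). Nefh, the heavy neurofilament chain of myelinated neurons, was 666 ± 63.9 FPKM in Dissociated and 76.5 ± 20.2 in MACS samples (SD, n = 4). Kcna1, a potassium channel of fast-conducting axons, was 80.5 ± 4.88 and 9.41 ± 1.99 FPKM. Whether the lower Scn4b came from fewer large neurons was not tested, and in bulk RNA fewer cells of a type and less of a transcript per cell cannot be told apart.

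Scn3b encodes the beta3 subunit, which is known from small sensory neurons. Its expression was 25.3, 26.0, 22.5 and 24.4 FPKM in Intact replicates 1 to 4, 27.9, 27.4, 23.7 and 25.3 FPKM in Dissociated replicates 1 to 4 and 38.4, 47.4, 42.6 and 45.4 FPKM in MACS replicates 1 to 4. The Intact and Dissociated samples overlapped, and every MACS sample lay above all of them. The means were 24.5 ± 1.503 FPKM in Intact, 26.1 ± 1.96 in Dissociated and 43.5 ± 3.87 in MACS samples (SD, n = 4 each).

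Between MACS and Dissociated samples, Scn3b rose 1.67-fold, or by 0.73 on the log2 scale (SE 0.08, adjusted p = 9.2e-05 by limma). Against Intact samples it rose 1.77-fold, or by 0.82 (SE 0.09, adjusted p = 1.6e-04). Between Dissociated and Intact samples its log2-fold change was 0.09, with a 95% confidence interval from -0.09 to 0.26 (adjusted p = 0.45 by limma), which holds changes in both directions and none of more than 0.26. Each of these calls held without any 1 sample.

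The markers of small-diameter nociceptors summed to 2449 to 3481 FPKM in Intact, 2581 to 2711 in Dissociated and 3052 to 4238 FPKM in MACS samples, beside the higher Scn3b. Of 10 such markers, 9 were called higher in MACS than in Dissociated samples, against 8.15% of all genes tested. The other, Calca, was not called, and the median log2-fold change of the 10 was 0.76 against -0.04 over all genes tested. Against Intact samples 6 of the 10 were called higher and 0 lower by limma, where 7.54% and 10.7% of all genes tested were. At an unadjusted p under 0.05 the counts were 7 and 0. The summed level of Intact replicate 1, 3481 FPKM, lay above that of MACS replicate 4, 3052 FPKM, whereas Scn3b did not overlap. Prph, the peripherin of unmyelinated neurons, was 867 ± 19.0 FPKM in Dissociated and 1508 ± 231 in MACS samples, and P2rx3, an ATP-gated channel, was 90.8 ± 2.89 and 166 ± 36.7 FPKM (SD, n = 4 each). Their part in the change of Scn3b was not tested.

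Scn2b encodes the beta2 subunit, which is known from many neurons of the central and peripheral nervous system. Its expression was 35.9, 33.1, 33.9 and 33.95 FPKM in Intact replicates 1 to 4 and 16.8, 15.9, 15.2 and 15.1 FPKM in Dissociated replicates 1 to 4. In MACS replicates 1 to 4 it was 50.1, 60.3, 18.8 and 43.9 FPKM. Every Dissociated sample lay below every Intact sample. MACS replicates 1, 2 and 4 lay above all Intact samples, and replicate 3 lay below all Intact samples and just above the Dissociated ones.

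The means of Scn2b were 34.2 ± 1.18 FPKM in Intact, 15.8 ± 0.80 in Dissociated and 43.3 ± 17.7 in MACS samples (SD, n = 4 each). Between Dissociated and Intact samples Scn2b fell by 1.11 on the log2 scale (SE 0.06, adjusted p = 4.1e-05 by limma), and the Intact mean was 2.17 times the Dissociated mean. Between MACS and Dissociated samples it rose by 1.33 (SE 0.30, adjusted p = 0.0052). Between MACS and Intact samples the log2-fold change was 0.21, with a 95% interval from -0.47 to 0.90 (adjusted p = 0.62).

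Both comparisons with the MACS samples changed without MACS replicate 3. The mean of the other 3 was 51.4 ± 8.30 FPKM (SD, n = 3). Against Dissociated samples the log2-fold change was then 1.69 (SE 0.11, adjusted p = 1.6e-05 by limma), and against Intact samples it was 0.57 (SE 0.12, adjusted p = 0.0090), past the call rule.

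Other genes set the same samples apart as Scn2b did. Over the whole table, 9 genes, Scn2b included, had the 4 Dissociated samples and MACS replicate 3 on one side of the 7 other samples by at least 1.5-fold in FPKM + 0.1, 5 of them lower and 4 higher. This search was made after the values of Scn2b were seen. Mmrn1, which encodes the platelet and endothelial protein multimerin 1, was listed at 0 in the 4 Intact samples and in MACS replicates 1, 2 and 4. It lay between 0.223 and 0.406 FPKM in the Dissociated samples and at 0.0511 FPKM in MACS replicate 3. The value in MACS replicate 3 was near the floor, below the 0.1 FPKM that was added to all values. The endothelial markers were also higher in Dissociated than in Intact samples, with sums of 38.2 to 50.5 against 20.2 to 23.7 FPKM. Their bearing on Mmrn1 was not tested.

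Wdfy1 was 11.97, 12.8, 12.5 and 12.8 FPKM in Intact replicates 1 to 4 and 2.70, 3.06, 3.05 and 3.12 FPKM in Dissociated replicates 1 to 4. In MACS replicates 1 to 4 it was 12.4, 12.2, 2.82 and 9.97 FPKM, so that replicate 3 again lay with the Dissociated samples. As background, inbred colonies sold as C57BL/6 can differ from each other at single genes, and the labels give the strain of all 12 samples as C57Bl/6. Whether the samples came from more than 1 colony was not tested, and between Dissociated and Intact samples such an origin and the dissociation cannot be told apart, since all 4 Dissociated samples had Mmrn1 above 0 and no Intact sample did. The same limit holds for the higher Scn2b of the MACS samples. The 3 MACS samples with Mmrn1 at 0 held 43.9 to 60.3 FPKM of Scn2b. MACS replicate 3, with Mmrn1 above 0 but near the floor, held 18.8 FPKM, beside 15.1 to 16.8 in the Dissociated samples. Scn3b and Scn4b did not follow these samples: MACS replicate 3 lay within the range of the other MACS samples in both.

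**Figure D2:**
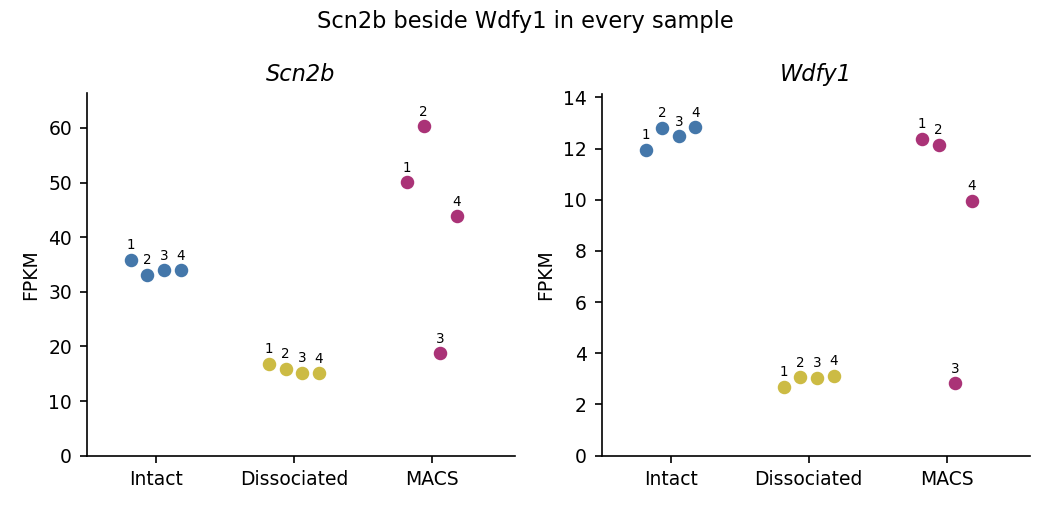
FPKM (y axis) of Scn2b and Wdfy1 in each Intact, Dissociated and MACS sample; numbers beside the points are replicates. MACS replicate 3 sits with the Dissociated samples in Scn2b (18.8 FPKM) and Wdfy1 (2.82 FPKM), below all Intact samples and the other MACS samples.

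**Figure D3:**
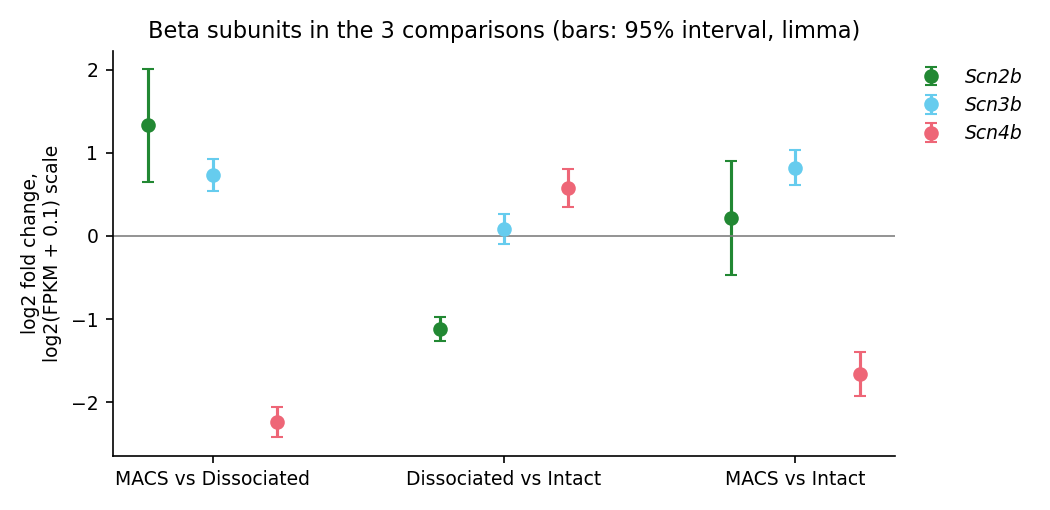
Log2-fold change (y axis, log2(FPKM + 0.1) scale) of Scn2b, Scn3b and Scn4b in the 3 comparisons, with 95% confidence intervals from limma as bars. The intervals of Scn4b lie below 0 in both comparisons of the MACS samples and above 0 between Dissociated and Intact samples, and those of Scn2b with MACS samples are the widest.

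The order of the 3 genes by level differed between the groups. In every Intact sample Scn4b was highest, then Scn2b, then Scn3b, and neighbours in this order were apart by more than their SD over samples. In every Dissociated sample Scn4b was again highest, with Scn3b second and Scn2b last. In the MACS samples Scn4b was lowest in replicates 1, 2 and 4 and second in replicate 3, where Scn2b was lowest. The MACS means of Scn2b and Scn3b, 43.3 ± 17.7 and 43.5 ± 3.87 FPKM, did not differ beyond their spread.

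Of the summed FPKM of the 3 genes, Scn4b made up 51.4% to 61.0% in Intact, 71.7% to 76.7% in Dissociated and 17.4% to 28.5% in MACS samples. Scn3b made up 15.6% to 20.1%, 14.2% to 17.7% and 34.2% to 49.6%, and Scn2b 23.3% to 28.5%, 9.10% to 10.7% and 21.9% to 46.2%. The sum itself was 126 to 144 FPKM in Intact, 152 to 167 in Dissociated and 85.8 to 130 in MACS samples.

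**Figure D4:**
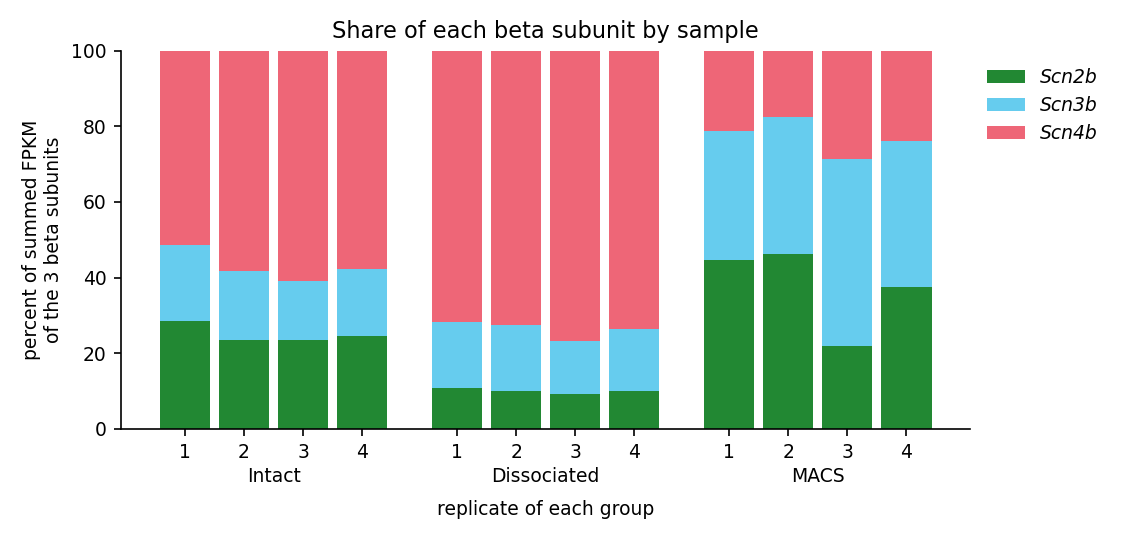
Share (percent, y axis) of Scn2b, Scn3b and Scn4b in their summed FPKM, with 1 bar for each of the 12 samples. Scn4b makes up at least 51.4% of each Intact and Dissociated bar and at most 28.5% of the MACS bars, and Scn3b makes up the largest share in MACS replicates 3 and 4.

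A ratio of 2 members within a sample does not change when all genes of a sample are scaled by 1 factor, and 9 such ratios were compared between groups by exact two-sided permutation tests. The Scn4b to Scn2b ratio had geometric means of 2.29 in Intact, 7.43 in Dissociated and 0.622 in MACS samples. The Scn4b to Scn3b ratio was 3.20, 4.50 and 0.570. None of the groups overlapped in either ratio, and each of these 6 tests gave p = 0.0286 (exact, n = 4 and 4), or 0.0367 adjusted over the 9 tests. The largest of these differences was in the Scn4b to Scn2b ratio between MACS and Dissociated samples, -3.58 on the log2 scale. With 1 sample left out, 2 of the 6 tests lost the threshold: Scn4b to Scn2b between MACS and Intact samples without any one of the Intact samples (exact permutation, adjusted p = 0.073), and Scn4b to Scn3b between Dissociated and Intact samples without any one of the Dissociated samples (exact permutation, adjusted p = 0.064), although the groups still did not overlap.

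The Scn3b to Scn2b ratio had geometric means of 0.716 in Intact, 1.65 in Dissociated and 1.09 in MACS samples. It differed between Dissociated and Intact samples by 1.21 on the log2 scale (exact permutation p = 0.0286, adjusted 0.0367). Between MACS and Dissociated samples the difference was -0.60 (exact permutation p = 0.14, adjusted 0.14) and between MACS and Intact samples 0.61 (exact permutation p = 0.057, adjusted 0.064), and the groups overlapped in both. MACS replicate 3, at 2.27, lay above every Dissociated sample and the other MACS samples below them, and MACS replicate 1, at 0.768, lay within the Intact range of 0.663 to 0.784. Without MACS replicate 3 the differences were -0.95 (exact permutation, adjusted p = 0.032) and 0.26 on the log2 scale, and without MACS replicate 1 the difference from Intact samples was 0.78 (exact permutation, adjusted p = 0.032).

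The alpha subunits form the pore of the channel that the beta subunits join, and 9 of them are given. Scn1a and Scn8a encode Nav1.1 and Nav1.6, known mainly from large myelinated neurons. Scn1a was 17.2 ± 5.76 FPKM in Intact, 22.9 ± 2.01 in Dissociated and 4.41 ± 1.09 in MACS samples, and Scn8a was 16.5 ± 6.12, 29.5 ± 3.50 and 6.48 ± 0.36 (SD, n = 4 each). Both were called lower in MACS than in Dissociated samples, by log2-fold changes of -2.38 (SE 0.16, adjusted p = 3.4e-06 by limma) and -2.17 (SE 0.09, adjusted p = 3.6e-07), beside -2.24 for Scn4b. Against Intact samples, Scn8a was called higher in Dissociated samples, with a log2-fold change of 0.93 (SE 0.28, adjusted p = 0.045 by limma). This call was lost when any 1 Dissociated sample was left out (adjusted p of 0.12 without replicate 3). It was also lost under quantile normalization (adjusted p = 0.067 by limma), removal of the haemoglobin genes (0.087) and without Intact replicate 2 or 4. A fit without the filter on low FPKM or without an intensity trend lost it too. Intact replicate 1 had the lowest Scn8a of its group, 7.82 FPKM against 16.9 to 21.7. It also had the lowest Scn1a, 8.68 FPKM against 18.6 to 21.1.

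Scn10a and Scn11a encode Nav1.8 and Nav1.9, the tetrodotoxin-resistant channels of nociceptors. Scn10a was 143 ± 28.5 FPKM in Intact, 173 ± 12.1 in Dissociated and 284 ± 32.0 in MACS samples, and Scn11a was 92.5 ± 14.1, 120 ± 3.87 and 246 ± 37.3 (SD, n = 4 each). Both were called higher in MACS than in Dissociated samples, with log2-fold changes of 0.71 (SE 0.10, adjusted p = 2.4e-04 by limma) and 1.03 (SE 0.11, adjusted p = 5.4e-05), beside 0.73 for Scn3b. Scn9a, which encodes Nav1.7 of small sensory and sympathetic neurons, was 51.6 ± 12.2, 51.4 ± 2.76 and 72.3 ± 4.88 FPKM. Its log2-fold change of 0.49 (SE 0.07, adjusted p = 3.6e-04) missed the fold criterion, which it passed under median-ratio scaling, quantile normalization and removal of the haemoglobin genes.

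Scn7a encodes Nax, a sodium-level sensor that is not opened by voltage, and was 93.5 ± 17.9, 90.0 ± 3.88 and 68.7 ± 12.7 FPKM in Intact, Dissociated and MACS samples (SD, n = 4 each). It was not called in any of the 3 comparisons, but without MACS replicate 4 it was called lower than in Dissociated samples, with a log2-fold change of -0.52 (adjusted p = 4.1e-04 by limma), and than in Intact samples, with -0.56 (adjusted p = 0.031), and without Intact replicate 1 lower than in Intact samples, with -0.59 (adjusted p = 0.0088). The alpha subunits of brain and muscle were low: Scn2a1 lay between 1.16 and 2.86 FPKM over all samples, Scn3a between 0.614 and 1.92 and Scn4a between 0.430 and 2.24, and none of them could reach the 5 FPKM that a call needs.

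Summed over these 9 genes, the alpha subunits came to 295 to 479 FPKM in Intact, 478 to 509 in Dissociated and 604 to 729 in MACS samples. The summed FPKM of the 3 beta subunits was 0.337 ± 0.061 of the alpha sum in Intact, 0.325 ± 0.009 in Dissociated and 0.164 ± 0.035 in MACS samples (SD, n = 4 each). Intact replicate 1, with the lowest alpha sum, had the highest beta to alpha ratio, 0.427, against 0.296 to 0.316 in the other Intact samples. In the highest MACS sample the beta to alpha ratio was 0.194, below the lowest value of the other groups, 0.296.

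The partners of the channel complex are the FGF homologous factors, ankyrins, spectrin and the adhesion proteins that hold sodium channels at nodes and initial segments. Of 19 genes, 18 were tested between MACS and Dissociated samples. In MACS samples 2 were called higher and 7 lower, against 8.15% and 12.5% of all genes tested. The median log2-fold change was -0.07 against -0.04 over all genes tested. Nfasc, the neurofascin of nodes and initial segments, was 29.9 ± 3.46 FPKM in Dissociated and 5.67 ± 0.65 in MACS samples. Cntn1, the contactin of the paranodal complex, was 108 ± 0.74 and 25.5 ± 1.56 FPKM, and Fgf11, a factor that binds the channel tail, was 5.10 ± 0.40 and 0.931 ± 0.114 FPKM (SD, n = 4 each). S100a10, which carries Nav1.8 to the membrane and was the partner with the highest expression, was 478 ± 12.2 and 580 ± 88.7 FPKM and was not called. Between Dissociated and Intact samples 4 partners were called higher and 0 lower by limma, against 4.29% and 2.76% of all genes tested. Their median was 0.44, and at an unadjusted p under 0.05 the counts were 10 and 1. The partner counts were not repeated without Intact replicate 1.

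Beta subunits are cut at the membrane by the secretases. Of 10 such genes tested between MACS and Dissociated samples, 2 were called lower and 0 higher by limma, against 12.5% and 8.15% of all genes tested, with a median log2-fold change of -0.30 against -0.04 over all genes (5 lower and 0 higher at an unadjusted p under 0.05). None of the 10 was called in the comparison of Dissociated with Intact samples, where 5 were higher and 1 lower at an unadjusted p under 0.05. Adam10 was 31.3 ± 4.50 FPKM in Dissociated and 19.6 ± 2.87 in MACS samples, and Adam17 was 6.66 ± 0.99 and 2.05 ± 0.70 FPKM. Bace1, the beta-secretase that cuts beta subunits, was 36.6 ± 1.41 and 35.2 ± 5.26 FPKM (SD, n = 4 each) and was not called.

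Among 3 genes of adhesion proteins with a related fold, Mpzl1 was called lower after sorting, at 11.8 ± 0.94 FPKM in Dissociated and 4.62 ± 2.03 in MACS samples (SD, n = 4 each), with a log2-fold change of -1.45 (SE 0.31, adjusted p = 0.0035 by limma). Mpzl3 was not called, and Mpzl2 was too low to be tested in this comparison.

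**Figure D5:**
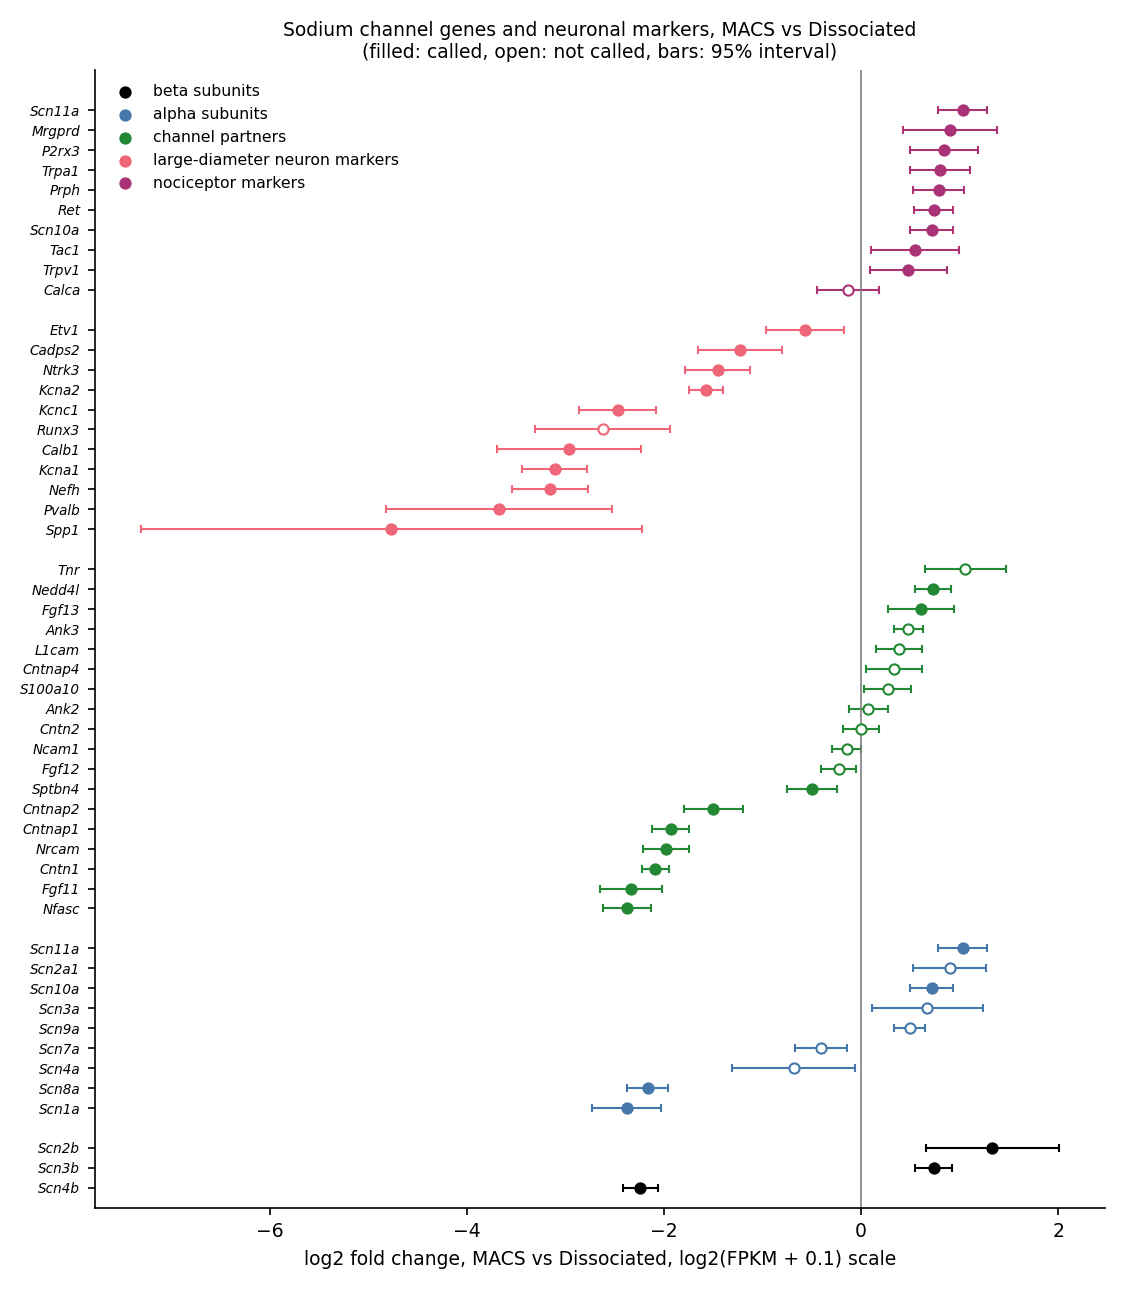
Log2-fold change between MACS and Dissociated samples (x axis, log2(FPKM + 0.1) scale) of the beta subunits, alpha subunits, channel partners and markers of large-diameter neurons and nociceptors, with 95% confidence intervals from limma as bars, filled points for called genes and open points for others. Scn4b at -2.24 lies beside Scn1a, Scn8a, Nfasc and Cntn1, and Scn3b at 0.73 lies beside Scn10a, Prph and Ret.

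The genes most like each member were ranked by Pearson's r of log2(FPKM + 0.1) over the 12 samples, among the 8248 genes that averaged 5 FPKM or more. These values describe the pattern over 3 groups that share libraries, and no test was made. The genes most like Scn4b were Fgfr1 (r = 0.996), Tyro3 (0.995), Bcan (0.995), Kcnk1 (0.994) and Tmem163 (0.994). Fgfr1, a fibroblast growth factor receptor, was 33.2 ± 3.86 FPKM in Intact, 47.5 ± 1.98 in Dissociated and 8.50 ± 0.98 in MACS samples (SD, n = 4 each).

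The genes most like Scn3b were Gfra2 (r = 0.985), Ifnar1 (0.981), Pou4f1 (0.980), Dcaf6 (0.980) and Prrxl1 (0.978). Gfra2, the neurturin receptor, was 46.6 ± 2.68 FPKM in Intact, 55.6 ± 4.33 in Dissociated and 139 ± 24.9 in MACS samples, and Pou4f1, a transcription factor of sensory neurons, was 46.0 ± 2.58, 52.0 ± 2.50 and 80.7 ± 8.76 (SD, n = 4 each). The genes most like Scn2b were Utp14a (r = 0.928), Rnaseh1 (0.922), Stx4a (0.918), Wdfy1 (0.915) and Snx8 (0.912), a lower likeness than the leading genes of Scn3b and Scn4b had. Apart from Wdfy1, these genes differed less between groups than Scn2b did, from Rnaseh1, with 7.28 ± 0.57 FPKM in Intact, 5.18 ± 0.41 in Dissociated and 7.90 ± 1.37 in MACS samples, to Utp14a, with 5.68 ± 0.10 FPKM in Intact, 4.97 ± 0.11 in Dissociated and 6.08 ± 0.90 in MACS samples.

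Within 100 kb of Scn2b and Scn4b, most genes were at or near 0. The antisense transcript Gm10684 spans Scn2b from 45107176 to 45135606 and lay between 0 and 0.869 FPKM, far below Scn2b in every sample. Tmprss4 was listed at 0 in all samples, and Amica1, BC049352 and Il10ra stayed under 2.16 FPKM. Mpzl3, a relative of the beta subunits 42.8 kb from Scn2b, lay between 1.62 and 5.42 FPKM. Mpzl2 lay between 2.13 and 3.78 FPKM in Intact, 0.0392 and 1.04 in Dissociated and 0 and 0.311 in MACS samples. Near Scn3b, Gramd1b, 6.29 kb away, was 27.6 to 33.1 FPKM in Dissociated and 18.1 to 18.9 FPKM in MACS samples, lower by 0.66 on the log2 scale (adjusted p = 6.5e-05 by limma) where Scn3b was higher. Zfp202 stayed under 0.793 FPKM, and Olfr986 and 1700110K17Rik were listed at 0.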

How the data were processed

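PolyA-selected RNA of 12 DRG samples, 4 each of Intact, Dissociated (acutely dissociated, unsorted) and MACS (magnetically sorted) DRG, was sequenced by the authors as 100-base reads from a directional library kit. Per the labels and the paper's methods, the authors used TopHat2 for alignment to mm10, SAMtools to merge lanes and Cufflinks 2.1.1 to estimate expression. The authors deposited a table of FPKM for 24490 genes in each sample. FPKM divides by transcript length and mapped fragments, so a transcript that takes a large part of a library lowers all others. Cufflinks shares fragments among overlapping transcripts.

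Groups came from the sample titles. The limma 3.58.1 tests (R 4.3.3) used log2(FPKM + 0.1) with an intensity trend, the 8 samples of a comparison and genes whose mean reached 1 FPKM. The pseudocount makes a log2-fold change understate the change of low genes. CuffDiff, which the study used, needs aligned reads and was replaced by limma. Ratios between members were compared by exact permutation tests. The procedure was tested on simulated data. Depth was estimated from the lowest FPKM steps of genes with 1 transcript, with fragments of 200 bases assumed. Counting errors cover counting only. The p-values measure the spread between samples, which were taken to be of separate mice or pools.

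The members, gene lists and tests were chosen with earlier results of these data known. Named are the 3 members, 9 alpha subunits, up to 4 genes of other lists described (those called with the largest change after sorting, and the one with the highest expression), the 5 genes most like each member and genes within 100 kb. Ret, Runx3, Etv1, Bace2, Calca, Nnt and the genes that set samples apart like Scn2b were named after their values were seen. The other lists, of macrophage, red blood cell and pan-neuronal genes among them, served to describe the samples. Genes with a symbol listed more than once were left out of the lists, and a few genes of the lists are not reported here and entered no list count or sum. Alternatives covered the pseudocount, the low-value filter, the samples in the fit, the trend, the scaling, the thresholds, the replicate block and leaving out each sample. After the data were seen, a fit with Dissociated replicates 1 and 2 averaged was added. These 2 samples lay close in satellite glia markers, at 2857 and 2850 FPKM, against 2444 and 2276 in replicates 3 and 4. In red blood cell markers they were less close, at 172 and 206 FPKM. Whether they were independent samples was not tested. Upstream sequences are from RefSeq for GRCm38.p6, which gave 2 of the 3 members.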

Additional observations from a re-analysis of the deposited data

Results flagged for a closer look

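Among the 4 samples of each group, 36 sets of values of the 3 members and 9 alpha subunits were searched for a sample far from the other 3 (Dixon's test at the 95% level), and 5 were found. Chance gives about 1 in 20, and none of the 5 was a value of Scn2b, Scn3b or Scn4b. In Scn10a, 3 samples stood apart: Intact replicate 1 with 101 FPKM, Dissociated replicate 3 with 191 FPKM and MACS replicate 4 with 237 FPKM. MACS replicate 4 also had the lowest Scn4a of its group, 0.430 FPKM. Dissociated replicate 3 had the lowest Scn7a of its group, 84.2 FPKM. Mmrn1 and Wdfy1 are not counted among these, since they were chosen because samples stood apart in them. MACS replicate 3 had 0.0511 FPKM of Mmrn1 with the other MACS samples at 0, where any value above 0 would stand apart, and Dissociated replicate 1 had the lowest Wdfy1 of its group, 2.70 FPKM.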

How the results depend on the processing

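Direction and side of the call rule were the same for Scn3b in all 3 comparisons and for Scn4b in both comparisons with MACS samples under all alternatives run at the stated fold threshold, and with a log2 ratio beyond 1 required Scn3b would not be called in any comparison, nor Scn4b between Dissociated and Intact samples. At the stated threshold, Scn4b between Dissociated and Intact samples was called except without Intact replicate 1, and its log2-fold change lay between 0.49 and 0.64 with 1 sample left out. Scn2b between MACS and Intact samples was called only without MACS replicate 3, and its log2-fold change lay between 0.014 and 0.57 with 1 sample left out. Without MACS replicate 3, Scn2b moved from 1.33 to 1.69 against Dissociated samples. With 1 sample left out, the Scn4b to Scn2b difference between MACS and Intact samples lay between -2.24 and -1.64 and the Scn4b to Scn3b difference between Dissociated and Intact samples between 0.387 and 0.591, with the losses of the threshold given above. The Scn3b to Scn2b difference lay between -0.95 and -0.43 for MACS against Dissociated samples, past the threshold without MACS replicate 3, and between 0.26 and 0.78 for MACS against Intact samples, past it without MACS replicate 1. With a log2 ratio beyond 1 required, 1139, 165 and 1011 genes were called between MACS and Dissociated, Dissociated and Intact, and MACS and Intact samples, and with a mean above 1 FPKM as the floor 1349 between Dissociated and Intact, fewer and more by construction. With 1 sample left out, that comparison called 579 to 885 genes, the lowest without Dissociated replicate 3, and the cause was not tested. The labels give the groups the same replicate numbers without saying that these pair them, and deviations of same-numbered samples from their group means correlated by -0.14 to 0.07, so the numbers were not taken as pairs. A replicate block gave 2507, 899 and 2229 called genes and changed no call of a member. Paired by number, the ratio tests cannot go below an exact p of 0.125, which says nothing about stability, and the replicate block left the differences themselves as they were: -3.58, 1.70 and -1.88 for Scn4b to Scn2b between MACS and Dissociated, Dissociated and Intact, and MACS and Intact samples, -2.98, 0.49 and -2.49 for Scn4b to Scn3b, and 1.21 for Scn3b to Scn2b between Dissociated and Intact samples. With Dissociated replicates 1 and 2 averaged, an alternative chosen after seeing the data, no call of a member changed. Depth limits the 3 lowest alpha subunits and the neighbours near 0 more than the members.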

Other observations

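Nnt, a mitochondrial transhydrogenase whose gene is known to differ between C57BL/6 colonies, was not among the 9 genes that set the Dissociated samples and MACS replicate 3 apart by 1.5-fold. The same samples were its lowest, but by a small margin, 4.49 FPKM in Dissociated replicate 3 against 4.98 in MACS replicate 4. Unlike in Scn2b, MACS replicates 1, 2 and 4 lay below every Intact sample. Nnt was 8.12, 7.26, 7.49 and 6.97 FPKM in Intact replicates 1 to 4 and 3.94, 4.39, 4.49 and 3.83 FPKM in Dissociated replicates 1 to 4. In MACS replicates 1 to 4 it was 6.10, 6.85, 3.41 and 4.98 FPKM, so that replicate 3 was again the only MACS sample within or below the range of the Dissociated samples. Other genes that set these samples apart were Gnrh1, Olig3 and Efcab7, lower like Scn2b, and Tmem181b-ps, Tmem254b and Supt16, higher like Mmrn1. All of these genes were chosen after their values were seen.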
